A study of Mus musculus with 9 samples.

Results

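The 10 genes described here, Jchain, Mzb1, Derl3, Fkbp11, Xbp1, Sdc1, Irf4, Prdm1, Pou2af1 and Tent5c, make up a plasma cell program. They were taken by gene symbol from the 27179 rows of the count table, with earlier results of these data known, and all 10 passed the filter on low counts that left 16329 genes for testing.

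Plasma cells are the antibody-secreting end stage of the B lymphocyte lineage, and many of those that live long reside in bone marrow. IRF4, BLIMP-1 (encoded by Prdm1) and XBP1 shut down B cell identity and build the secretory machinery, while the other genes act in antibody assembly, in protein quality control of the endoplasmic reticulum (ER), at the cell surface or on messenger RNA. Most of these genes are also used by other cells: Sdc1 by epithelia, Xbp1 and Fkbp11 by other secretory cells, and Tent5c by red cell precursors.

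The study compared mandibles of WT mice with those of FcgRIIB-/- mice, a lupus model that lacks an inhibitory receptor for IgG. Whole mandibles including the teeth were pulverized, so that each library holds RNA of bone, marrow, tooth, muscle and epithelium together, and poly(A) RNA was sequenced. There were 5 WT mice and 4 mice labelled FcgRIIB-/-, each mouse giving 1 library. All were male C57BL/6 animals of 6 months. The study names no restriction of the knockout to a cell type, and the labels name no treatment.

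Totals lay between 21453880 and 28991631 counts per library. The count of the targeted gene was not reduced under the knockout label: Fcgr2b had 442 to 954 counts in WT and 562 to 757 counts in the libraries labelled FcgRIIB-/-, with a log2 fold change of 0.21 (edgeR quasi-likelihood test, adjusted p = 0.442). With WT replicate 2 left out, the groups did not overlap and Fcgr2b was called higher in the libraries labelled FcgRIIB-/- (log2 fold change 0.46, adjusted p = 0.0131). The groups are therefore named by their labels, and every direction below is between libraries by their labels. WT replicate 2 stood apart in the genes of this report. Its immunoglobulin transcripts took 1.13% of all counts (95% Wilson interval 1.12 to 1.13), against 0.0457% to 0.0984% in the other WT mice, and the comparisons are therefore given with and without it.

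In the libraries labelled FcgRIIB-/-, 4 of the 10 genes were lower and none was higher by edgeR's quasi-likelihood test at an adjusted p under 0.05. Jchain, Irf4, Pou2af1 and Tent5c were those 4. Over all genes tested, 19.3% were called lower and 14.0% higher. When WT replicate 2 was left out, Mzb1 also passed as lower and Derl3 passed as higher, which made 5 lower and 1 higher, beside 16.0% and 12.9% of all genes in that comparison. The median log2 fold change of the 10 genes was -1.25 with all mice and -0.53 without WT replicate 2, against 0.01 and 0.03 over all genes tested. With all mice, Derl3, Fkbp11, Xbp1, Sdc1 and Prdm1 lay between -0.21 and 0.10. Irf4, Mzb1, Tent5c, Pou2af1 and Jchain lay at -2.29 or lower, so no gene was near the median of -1.25. In a whole mandible, fewer cells of a type and less RNA per cell cannot be told apart. The study names where the mice were housed, but neither it nor the labels give the cage or litter of each mouse. The p-values measure the spread between these animals, and the part of cage or litter was not tested.

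**Figure D1:**
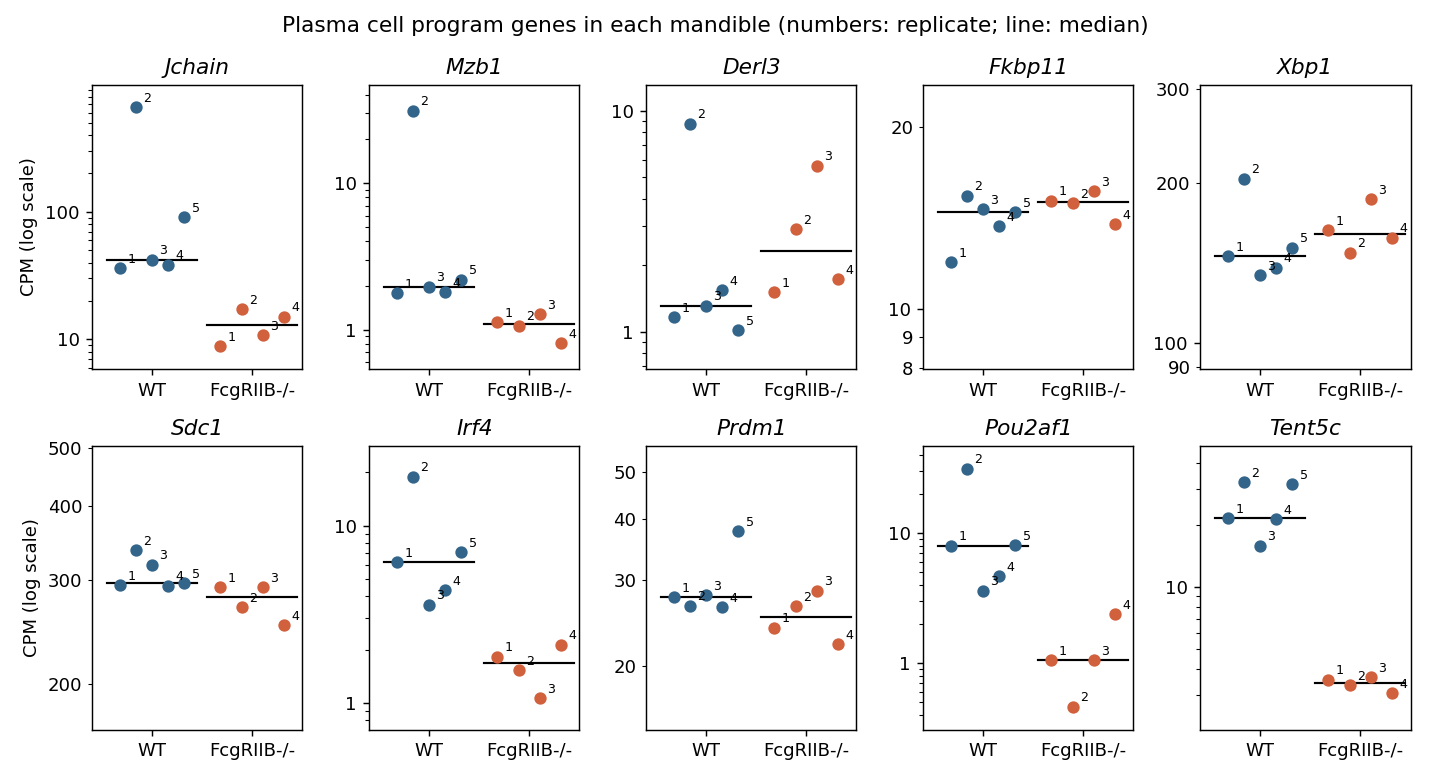
Normalized counts (CPM, log axis) of the 10 genes in each mandible, with blue points for the 5 WT mice, orange points for the 4 mice labelled FcgRIIB-/-, small numbers for the replicate and a line at each group's median. WT replicate 2 is far above the other WT mice for Jchain, Mzb1 and Derl3. The groups do not overlap for Jchain, Mzb1, Sdc1, Irf4, Pou2af1 and Tent5c.

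Seen per length of transcript, the genes covered a wide range of levels. In CPM, the read count scaled to the TMM-normalized library size, per kb of exon, the WT medians were 77.8 for Sdc1 and 44.9 for Xbp1, followed by 16.7 for Jchain. Fkbp11, Prdm1, Tent5c and Pou2af1 had WT medians between 3.14 and 5.35 CPM per kb. Mzb1, Irf4 and Derl3 were the lowest, at 1.62, 1.27 and 0.658 CPM per kb. The most abundant genes of the program were thus those with known use outside plasma cells. In the libraries labelled FcgRIIB-/- the medians of Jchain, Tent5c and Pou2af1 were 5.13, 0.563 and 0.414 CPM per kb, while Sdc1 and Xbp1 stood at 73.7 and 49.4.

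The 250 bases upstream of the transcription start are shown for the 4 genes called lower and for Derl3, which was called higher without WT replicate 2. They are RefSeq sequences of GRCm38.p6, read 5′ to 3′ on the strand of the gene. Capitals mark matches to 4 motifs searched on both strands of windows that also took in the first 50 transcribed bases: the octamer ATTTGCAT bound by the partners of the POU2AF1 protein, TGACGTGG and its overlapping core CCACG known from the unfolded protein response, and GAAAGT known for BLIMP-1 and IRF factors. The regions are chr5:88527898-88528147 on the minus strand for Jchain, chr13:30748983-30749232 on the plus strand for Irf4, chr9:51213440-51213689 on the plus strand for Pou2af1, chr3:100489193-100489442 on the minus strand for Tent5c and chr10:75893148-75893397 on the plus strand for Derl3.
Jchain: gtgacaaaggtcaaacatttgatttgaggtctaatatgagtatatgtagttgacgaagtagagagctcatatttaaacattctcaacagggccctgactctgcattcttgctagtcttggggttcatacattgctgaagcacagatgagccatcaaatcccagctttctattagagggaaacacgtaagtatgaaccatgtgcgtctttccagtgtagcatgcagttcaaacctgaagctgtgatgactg
Irf4: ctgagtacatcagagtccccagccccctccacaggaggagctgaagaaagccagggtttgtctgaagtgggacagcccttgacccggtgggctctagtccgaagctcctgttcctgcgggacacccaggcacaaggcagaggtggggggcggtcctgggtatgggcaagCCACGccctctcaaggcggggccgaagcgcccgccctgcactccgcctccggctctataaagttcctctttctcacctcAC
Pou2af1: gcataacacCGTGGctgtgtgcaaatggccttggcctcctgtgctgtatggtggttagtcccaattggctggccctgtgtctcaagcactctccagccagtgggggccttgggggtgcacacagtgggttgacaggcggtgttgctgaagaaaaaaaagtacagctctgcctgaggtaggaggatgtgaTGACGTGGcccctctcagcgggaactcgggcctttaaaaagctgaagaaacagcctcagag
Tent5c: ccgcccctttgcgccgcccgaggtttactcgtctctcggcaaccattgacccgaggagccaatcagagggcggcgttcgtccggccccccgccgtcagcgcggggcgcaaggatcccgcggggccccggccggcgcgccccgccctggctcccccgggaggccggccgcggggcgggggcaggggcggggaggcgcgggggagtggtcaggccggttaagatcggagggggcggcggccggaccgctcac
Derl3: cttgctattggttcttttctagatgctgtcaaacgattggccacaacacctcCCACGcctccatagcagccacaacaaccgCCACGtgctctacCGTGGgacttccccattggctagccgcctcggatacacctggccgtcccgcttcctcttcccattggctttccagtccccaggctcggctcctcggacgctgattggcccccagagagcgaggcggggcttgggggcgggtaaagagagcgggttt

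The Pou2af1 promoter held TGACGTGG 61 bases before the start, a string found in 0.676% of the 32851 promoters of the same length, with a reverse CCACG at 58 bases that overlaps it. Pou2af1 also held a reverse CCACG 241 bases before the start and a forward CCACG 12 bases after it. Derl3 held CCACG at 198, 169 and 156 bases before the start, the last on the reverse strand. This short core occurs in 32.8% of all promoters. Irf4 had CCACG 81 bases before the start, and a reverse GAAAGT across the start, of which the first letters are the capitals at the end of its line (GAAAGT occurs in 14.3% of promoters). The windows of Jchain and Tent5c held none of the 4 motifs. The octamer, present in 1.74% of all promoters, was found in none of the windows of the 9 genes searched, which did not include Mzb1. A match in letters is a description of the sequence and was not tested as a binding site.

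Irf4 (chromosome 13, 30749233 to 30766981, mm10) encodes a transcription factor that activated B cells need to become plasma cells, and it is also expressed in T cells and macrophages. WT replicates 1 to 5 had 6.23, 18.9, 3.59, 4.33 and 7.07 CPM. Replicates 1 to 4 of the libraries labelled FcgRIIB-/- had 1.82, 1.53, 1.06 and 2.13 CPM, and no mouse of that group reached the lowest WT mouse. The log2 fold change was -2.29 (standard error, SE, 0.49, adjusted p = 0.00617, edgeR). It was -1.69 (SE 0.28, adjusted p = 0.0025) without WT replicate 2, so the call did not rest on that mouse. Over all tested genes, 17.5% had groups that did not overlap with the libraries labelled FcgRIIB-/- lower, and 6 of the 10 genes here were of that kind.

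Pou2af1 (chromosome 9, 51213690 to 51240079) encodes OBF-1, a coactivator that joins octamer-binding factors on immunoglobulin promoters. The WT mice had 8.01, 31.4, 3.62, 4.66 and 8.08 CPM. Libraries labelled FcgRIIB-/- had 1.05, 0.462, 1.06 and 2.38 CPM, all lower than every WT mouse. Those values rest on 10 to 47 counts, and counting error adds to their spread. The log2 fold change of Pou2af1 was -3.19 (SE 0.72, adjusted p = 0.00757), and -2.30 (SE 0.43, adjusted p = 0.00415) without WT replicate 2.

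Prdm1 (chromosome 10, 44437174 to 44528558) encodes BLIMP-1, the repressor that silences the B cell program. Its WT values were 27.6, 26.5, 27.9, 26.4 and 37.8 CPM. Against these, the mice labelled FcgRIIB-/- had 23.9, 26.5, 28.5 and 22.1 CPM, of which 2 lay inside the WT range and 2 below it. WT replicate 5, not replicate 2, was the highest. Its log2 fold change was -0.21 (SE 0.12, adjusted p = 0.202) and did not pass the test, nor did it without WT replicate 2 (-0.23, adjusted p = 0.216).

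Xbp1 (chromosome 11, 5520641 to 5525993) encodes the factor that expands the secretory apparatus after its messenger RNA is spliced by IRE1. Counts per gene do not separate the spliced and unspliced forms. WT mice had 146, 204, 134, 139 and 151 CPM, and the libraries labelled FcgRIIB-/- had 163, 148, 187 and 158 CPM, so the groups overlapped. For Xbp1 the log2 fold change was 0.08 (SE 0.13, adjusted p = 0.642). It was 0.22 (SE 0.09, adjusted p = 0.0843) without WT replicate 2, still short of the threshold. Among the 4 regulators, then, Irf4 and Pou2af1 fell whereas Prdm1 and Xbp1 passed the test in neither direction.

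Jchain (chromosome 5, 88519809 to 88527897) encodes the joining chain that links IgA and IgM into polymers. WT replicates had 36.2, 659, 42.0, 38.5 and 91.1 CPM, from 998, 16411, 1090, 1050 and 2333 counts. Jchain in the libraries labelled FcgRIIB-/- was at 8.79, 17.1, 10.7 and 15.1 CPM, from 251 to 371 counts. WT replicate 2 was 16.3 times the median of the other WT mice, yet every library labelled FcgRIIB-/- also lay below the lowest WT mouse. The log2 fold change of Jchain was -3.75 (SE 0.97, adjusted p = 0.0146). Without WT replicate 2, the WT mean was 52.0 ± 26.2 CPM (SD, n = 4) against 12.9 ± 3.85 CPM (SD, n = 4). That difference, a log2 fold change of -2.00 (SE 0.33, adjusted p = 0.00231), was smaller in size and had a smaller error.

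Mzb1 (chromosome 18, 35647265 to 35650266) encodes an ER protein of B and plasma cells that assists antibody assembly. WT replicates had 1.78, 31.1, 1.97, 1.80 and 2.19 CPM. Mice labelled FcgRIIB-/- had 1.12, 1.06, 1.27 and 0.811 CPM, from 16 to 32 counts. The groups did not overlap, but the size of the difference depended on WT replicate 2, at 16.5 times the median of the other WT mice. With all mice the log2 fold change was -2.85 (SE 1.01) and just missed the threshold (adjusted p = 0.0505). It was -0.83 (SE 0.21) and passed (adjusted p = 0.0152) without WT replicate 2.

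Derl3 (chromosome 10, 75893398 to 75895941) encodes a derlin of ER-associated degradation, the removal of misfolded proteins. It had 1.16, 8.75, 1.31, 1.54 and 1.02 CPM in WT. The libraries labelled FcgRIIB-/- had 1.51, 2.91, 5.63 and 1.72 CPM, with replicate 3 the highest. The groups overlapped whether WT replicate 2 was kept or not, since WT replicate 4 lay above replicate 1 of the other group. The log2 fold change was 0.10 (SE 0.68, adjusted p = 0.922) with all mice. It became 1.24 (SE 0.40, adjusted p = 0.0413) without WT replicate 2, while the exact permutation test of the same 8 mice gave a two-sided p = 0.0571.

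Fkbp11 (chromosome 15, 98724368 to 98728198) encodes a prolyl isomerase of secretory cells. Its values were 12.0, 15.4, 14.7, 13.7 and 14.5 CPM in WT and 15.1, 15.0, 15.7 and 13.8 CPM in the libraries labelled FcgRIIB-/-. All 9 mice lay in a narrow band, and the difference did not pass the test (log2 fold change 0.09, SE 0.09, adjusted p = 0.496).

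Sdc1 (chromosome 12, 8771396 to 8793716) encodes syndecan-1, CD138, the surface proteoglycan by which plasma cells are commonly identified and which epithelia also carry. The WT mice had 294, 337, 318, 293 and 296 CPM. In the other group it had 291, 270.0, 292 and 252 CPM. The groups did not overlap, but the highest library labelled FcgRIIB-/- lay within 2 CPM of the lowest WT mouse. Its log2 fold change of -0.16 (SE 0.08, adjusted p = 0.148) was not called, whereas the exact permutation test over all 126 splits of the 9 mice gave the smallest p it allows (two-sided p = 0.00794).

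Tent5c (chromosome 3, 100468057 to 100489192) encodes a cytoplasmic poly(A) polymerase that lengthens the tails of messenger RNAs of secreted proteins, immunoglobulins among them. WT mice had 21.7, 32.4, 15.8, 21.3 and 31.7 CPM. The libraries labelled FcgRIIB-/- had 3.54, 3.33, 3.64 and 3.04 CPM, a spread far narrower than that of WT. Tent5c had the smallest adjusted p of the 10 genes, with a log2 fold change of -2.85 (SE 0.22, adjusted p = 7.1e-05). It was the least affected by WT replicate 2 of the genes called lower, at -2.72 (SE 0.21, adjusted p = 6.5e-05) without it.

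The exact permutation test of each gene gave a two-sided p = 0.00794, the smallest possible, for Jchain, Sdc1, Irf4, Pou2af1 and Tent5c. Mzb1 had an exact p = 0.0317, and the exact p of Derl3, Fkbp11, Xbp1 and Prdm1 lay between 0.19 and 0.532. Without WT replicate 2 the same test gave Jchain, Mzb1, Sdc1, Irf4, Pou2af1 and Tent5c an exact p = 0.0286, the smallest that 4 mice against 4 allow. These exact p-values are not adjusted for the number of genes.

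**Figure D2:**
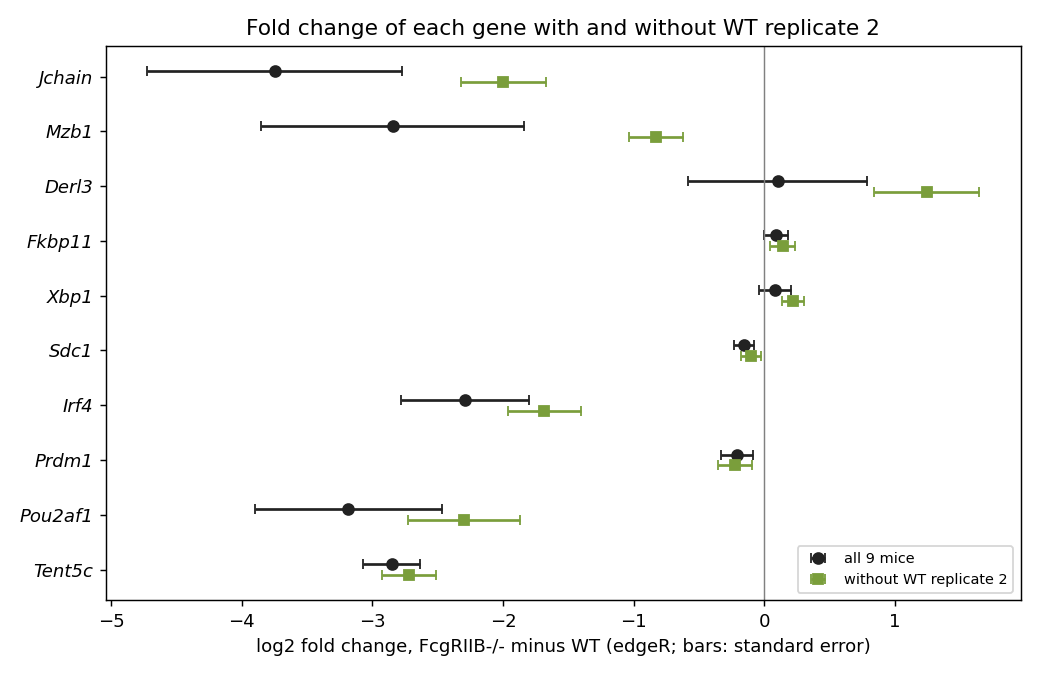
Log2 fold change of the libraries labelled FcgRIIB-/- minus WT for each gene (horizontal axis, edgeR), with black circles for all 9 mice, green squares for the fit without WT replicate 2 and bars for the standard error (SE). Jchain moves from -3.75 to -2.00, Mzb1 from -2.85 to -0.83 and Derl3 from 0.10 to 1.24, while Tent5c moves from -2.85 to -2.72.

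The immunoglobulin constant genes, the main product of plasma cells, were lower as a group in the libraries labelled FcgRIIB-/-. Of the 12 genes, 11 were tested, with a median log2 fold change of -4.07. Of these, 10 were called lower and none higher, beside 19.3% and 14.0% of all genes tested. The test without WT replicate 2 called 9 lower, with a median of -1.76. The count called lower also varied with the tool and with single mice of the other group. It was 5 with DESeq2, among them Ighe, which the main test left out. DESeq2 gave Igha, Ighg1, Ighg2b, Ighg2c, Igkc and Iglc2 no adjusted p, so these could not be called. With limma-voom the count was 4. It was 2, 6, 4 and 6 on leaving out replicates 1, 2, 3 and 4 labelled FcgRIIB-/- in turn. The summed level of the constant genes was 9528 CPM in WT replicate 2, 374 to 811 CPM in the other WT mice and 109 to 189 CPM in the libraries labelled FcgRIIB-/-. Reads of these genes can be shared between near-identical copies, chiefly among the IgG subclasses and among the lambda genes, so single values are uncertain.

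Igha, the heavy chain of IgA, had 67.7, 2206, 93.1, 85.1 and 201 CPM in WT. Replicate 2 of the libraries labelled FcgRIIB-/-, at 70.4 CPM, overlapped the WT range, and the other 3 had 11.9 to 29.5 CPM. Its log2 fold change was -4.02 (adjusted p = 0.027) with all mice and -1.76 (adjusted p = 0.0293) without WT replicate 2. Among the IgG genes the log2 fold change was -5.77 for Ighg2c (adjusted p = 0.0247), -5.36 for Ighg2b (adjusted p = 0.0145) and -4.07 for Ighg1 (adjusted p = 0.0371). These log2 fold changes were smaller in size without WT replicate 2, at -2.27 for Ighg2c (adjusted p = 0.0218) and -2.90 for Ighg2b (adjusted p = 0.00759), and Ighg1 lost its call (-1.45, adjusted p = 0.0674). Ighg3 was not called (log2 fold change -2.82, adjusted p = 0.0524), and Ighe was too low for the test.

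Igkc, the kappa light chain, had a log2 fold change of -4.10 (adjusted p = 0.0204) and of -1.78 (adjusted p = 0.0035) without WT replicate 2. The lambda genes Iglc1, Iglc2 and Iglc3 fell by 5.22, 4.14 and 2.39 on the log2 scale (adjusted p = 0.0181, 0.0241 and 0.0218), and were at -3.01, -1.96 and -1.54 without WT replicate 2 (adjusted p = 0.0137, 0.00928 and 0.0175). Ighm and Ighd, carried by B cells that have not switched class, changed by -1.57 (adjusted p = 0.0198) and -2.60 (adjusted p = 0.029) on the log2 scale, and by -1.19 (adjusted p = 0.0326) and -1.57 (adjusted p = 0.0376) without WT replicate 2. Ighm was the constant gene with the fold change nearest to 0 in both fits.

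The class-switched share of the heavy chain counts, a measure added after the counts had been seen, is Igha, Ighe and all Ighg counts over those plus Ighm. It was 42.7%, 96.2%, 76.8%, 66.1% and 83.1% in WT replicates 1 to 5. In the libraries labelled FcgRIIB-/- it was 44.1%, 86.7%, 26.1% and 46.5%. The groups overlapped, with WT replicate 1 among the low mice and replicate 2 of the other group among the high ones. The 95% Wilson intervals, which cover counting error only, were at most a few percent wide, from 24.1 to 28.1% in the mouse with the lowest share.

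**Figure D3:**
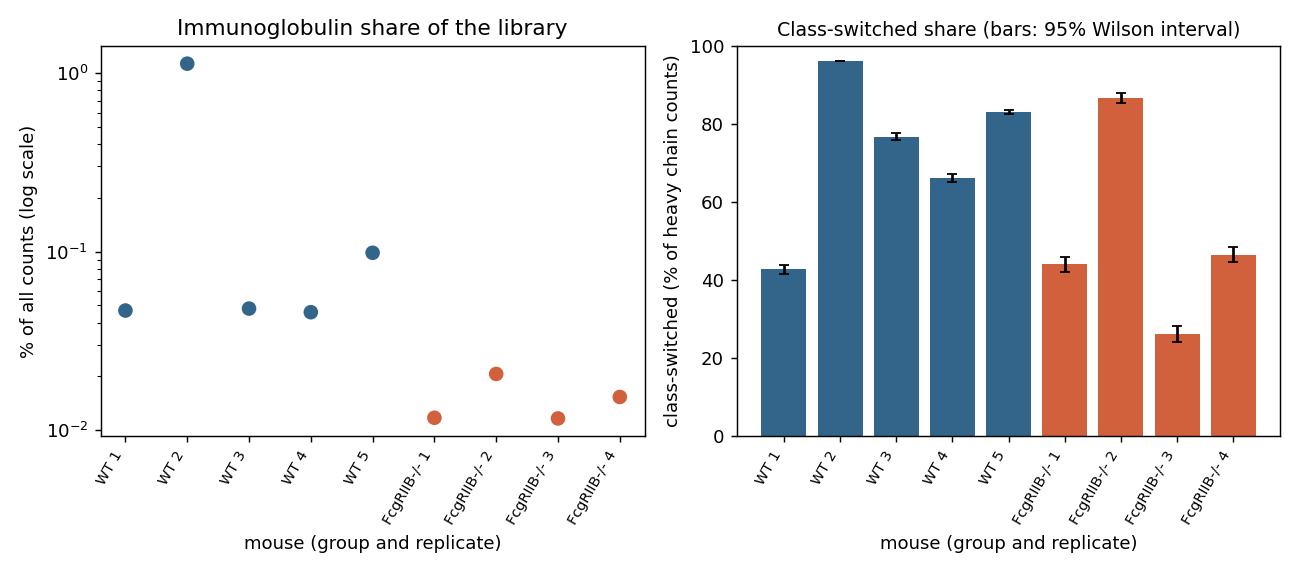
Immunoglobulin counts as % of all counts in each mouse (left, log axis) and the class-switched share of Igha, Ighe, Ighg and Ighm counts (right, with 95% Wilson intervals), with WT in blue and the libraries labelled FcgRIIB-/- in orange. WT replicate 2 stands at 1.13% of all counts, and all 4 libraries labelled FcgRIIB-/- lie at or under 0.0206%, below every WT mouse.

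Levels of Jchain were also set against the B cell receptor chains Cd79a and Cd79b of the same mouse, which naive B cells express and plasma cells largely lose. The log2 ratio was 2.15, 4.86, 3.02, 2.59 and 3.28 in WT and 2.59, 4.16, 2.13 and 2.1 in the libraries labelled FcgRIIB-/-. The groups overlapped. The means were 3.18 ± 1.03 (SD, n = 5) and 2.75 ± 0.97 (SD, n = 4), a difference of -0.44 (two-sided exact permutation test, p = 0.484), and -0.02 (exact p = 0.886) without WT replicate 2. The ratio of Jchain to the B cell genes therefore did not show a difference larger than the spread between mice, while both its parts were lower.

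Other genes known from plasma cells moved less uniformly. Of 16 companion genes, 14 were tested, and their median log2 fold change was -0.30. Of these, 5 were called lower and none higher, beside 19.3% and 14.0% of all genes tested. Leaving out WT replicate 2 left 2 called lower and 1 higher, with a median of -0.07. Of the 6 most abundant, Itga4, the integrin subunit used in homing to marrow, had a log2 fold change of -1.16 (adjusted p = 0.000709) and kept its call without WT replicate 2 (-1.05, adjusted p = 0.00105). Creb3l2 and Txndc5 fell by 0.37 and 0.24 on the log2 scale (adjusted p = 0.0232 and 0.0482) and missed the threshold without that mouse, at -0.34 (adjusted p = 0.0504) and -0.16 (adjusted p = 0.111). Trp53inp1, Ell2 and Prdx4 had log2 fold changes of -0.08, 0.10 and -0.13 and were not called.

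The other 2 companions called lower, and Cd38, were picked out after their values were seen. Slamf7, a surface receptor of plasma cells and other immune cells, had 6.16, 13.3, 5.09, 6.90 and 7.77 CPM in WT. It had 0.841, 0.231, 0.974 and 1.32 CPM in the libraries labelled FcgRIIB-/-, with a log2 fold change of -3.22 (adjusted p = 0.000639) and of -2.93 (adjusted p = 0.00056) without WT replicate 2. Tnfrsf13b, the receptor TACI, had a log2 fold change of -2.03 (adjusted p = 0.0319) that lost its call without WT replicate 2 (-1.44, adjusted p = 0.0503). Cd38 was at 0.13 (adjusted p = 0.672) and became the 1 companion called higher without that mouse (0.40, adjusted p = 0.0218). Tnfrsf17, which encodes the plasma cell receptor BCMA, was at or below 0.642 CPM in every mouse, and with Ccr10 it was too low for the test.

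Genes of the plasma cell niche include CXCL12, the chemokine that retains plasma cells in marrow, its receptor CXCR4 and survival signals such as IL-6. Of 11 genes, 9 were tested, with a median log2 fold change of -0.72. Of these, 6 were called lower and none higher, beside 19.3% and 14.0% of all genes tested. Without WT replicate 2 there were 5 called lower, beside 16.0% of all genes in that comparison. Il6ra, Cxcr4 and Cxcl12 had the lowest fold changes among those called, at -1.13 (adjusted p = 0.000784), -0.88 (adjusted p = 0.00402) and -0.73 (adjusted p = 0.0038) on the log2 scale. Cxcl12 is made by stromal cells, and Cxcr4 is used by most marrow leukocytes. Il6 and Il21 did not pass the filter on low counts and were not tested. Il6 had 2, 77, 65 and 5 counts in replicates 1 to 4 labelled FcgRIIB-/-, against 1 to 28 counts in WT.

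More ER genes were called higher than lower, though most were not called. Of 42 genes for protein folding, translocation and the unfolded protein response, 16 were called higher, 2 lower and 24 neither. Over all genes tested, 14.0% were called higher and 19.3% lower. The median log2 fold change of the list was 0.14. Without WT replicate 2 the counts were 16 higher and 1 lower, and the median was 0.18. The count called higher fell to 7, with 5 lower, without replicate 3 of the libraries labelled FcgRIIB-/-, to 10 without replicate 2 of that group, and to 8, with 4 lower, when libraries were scaled by their total alone. Sdf2l1, Hspa5 and Creld2, all induced by unfolded proteins in most cell types, rose the most. Their log2 fold changes were 1.01 (adjusted p = 0.0203), 0.88 (adjusted p = 0.0247) and 0.83 (adjusted p = 0.0116). Ero1l and Eif2ak3 were the 2 called lower, at -0.49 (adjusted p = 0.00626) and -0.25 (adjusted p = 0.0187).

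The rise was not alike in all mice labelled FcgRIIB-/-. Hspa5, the chaperone BiP, had 483 to 587 CPM in WT and 896, 922, 1664 and 506 CPM in the other group. Replicate 3 was thus the highest and replicate 4 lay inside the WT range. Derl3 had its highest level of that group in replicate 3 as well, at 5.63 CPM, and so did Xbp1, at 187 CPM. Fkbp11 was also highest there, at 15.7 CPM, but close to 15.1 CPM in replicate 1 and 15.4 CPM in WT replicate 2.

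Close relatives of the 10 genes were mostly not called. Of 23 paralogs tested, 2 were called higher and 5 lower, beside 14.0% and 19.3% of all genes tested, with a median of -0.04. Tent5b changed by -1.36 (adjusted p = 0.0129) on the log2 scale and Tent5a by 0.39 (adjusted p = 0.041), so that the 3 tested genes of the TENT5 family did not share a direction. Irf8, a factor of B and myeloid cells, was at -1.10 (adjusted p = 0.00423), Pou2f1 at -0.34 (adjusted p = 0.00688) and Fkbp2 at 0.59 (adjusted p = 0.00194).

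Markers of other B lineage cells were also mostly lower in the libraries labelled FcgRIIB-/-. Of 16 mature B cell genes, 12 were lower and 1, Bcl6, was higher (log2 fold change 0.36, adjusted p = 0.0394). The shares over all genes tested were 19.3% lower and 14.0% higher. Bcl6 lost that call without WT replicate 2 (0.33, adjusted p = 0.0684), where 12 were still called lower. The summed level was 122 to 265 CPM in WT and 97.5 to 126 CPM in the libraries labelled FcgRIIB-/-. Fcer2a, Ms4a1 and Cd79a fell by 3.67, 3.15 and 2.74 on the log2 scale (adjusted p = 0.00971, 0.026 and 0.00567), and were at -2.55, -2.01 and -2.16 without WT replicate 2 (adjusted p = 0.00251, 0.0395 and 0.00499). All 7 B cell precursor genes tested were lower, with sums of 13.7 to 27.4 CPM in WT and 2.50 to 7.50 CPM in the other group. Rag1, Rag2 and Dntt, which act in receptor rearrangement, fell by 3.29, 2.81 and 2.70 on the log2 scale (adjusted p = 0.00082, 0.00115 and 0.00761). WT replicate 2 did not stand out in the precursor genes, where its sum was 22.3 CPM. The part of B lineage cells other than plasma cells in the fall of Irf4, Pou2af1 and Jchain was not tested.

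Among T cell genes, 1 of 10 tested was lower, beside 19.3% of all genes tested. It was Cd4 (log2 fold change -1.38, adjusted p = 0.0363), and none was called lower without WT replicate 2. That mouse had a summed T cell level of 72.8 CPM, against 15.1 to 24.5 CPM in the other WT mice and 11.4 to 15.7 CPM in the libraries labelled FcgRIIB-/-. The library with the high plasma cell transcripts was thus also high in T cell transcripts, and Cd8b1 and Themis were too low for the test. Of 7 plasmacytoid dendritic cell genes tested, 3 were lower and 2 higher, beside 19.3% and 14.0% of all genes tested. Ccr9, Siglech and Ly6d fell by 1.74, 1.67 and 1.60 on the log2 scale. Cox6a2, which muscle also expresses, and Bst2 rose by 1.14 and 0.45 (adjusted p between 0.00371 and 0.00463 for all 5 genes). Ly6d was at 81.1 to 296 CPM in WT, against 2.97 to 5.35 CPM for Siglech and 0.617 to 1.76 CPM for Ccr9. Like the summed keratinized genes below, Ly6d was lowest in WT replicate 2 and highest in WT replicate 5 among the WT mice. The part of epithelium in its level was not tested.

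The blood-forming lists were lower throughout. All 10 erythroid genes were called lower, beside 19.3% of all genes tested. The erythroid sums were 451 to 703 CPM in WT and 14.3 to 75.9 CPM in the libraries labelled FcgRIIB-/-. Slc4a1, Rhag and Epb42 had log2 fold changes of -4.66 (adjusted p = 0.00185), -4.51 (adjusted p = 0.00073) and -4.50 (adjusted p = 0.000399). All 10 neutrophil precursor genes were also called lower, with Ngp at -4.48 (adjusted p = 0.0026), Cebpe at -4.30 (adjusted p = 0.000352) and Elane at -3.62 (adjusted p = 0.00165). Their sums were 1130 to 3404 CPM in WT and 139 to 419 CPM in the other group. Tent5c, used by red cell precursors as well as plasma cells, moved with these lists, and their part in its fall was not tested.

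Sdc1 is shared with epithelia, whose keratinized genes also differed. Of 12 tested, 7 were lower and 1 higher, beside 19.3% and 14.0% of all genes tested. The 1 higher was Krt5 (log2 fold change 0.39, adjusted p = 0.0356). Leaving out WT replicate 2 gave 8 lower and none higher, with Krt5 at 0.34 (adjusted p = 0.0521). Lor, Krt1 and Krt4 had log2 fold changes of -6.76 (adjusted p = 7.65e-05), -6.44 (adjusted p = 0.00317) and -5.67 (adjusted p = 0.000297). The summed level was 6814 to 24193 CPM in WT, lowest in replicate 2, and 5331 to 6881 CPM in the libraries labelled FcgRIIB-/-. Ivl was near 0 in every mouse. The part of epithelium in the level of Sdc1 was not tested.

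Of the tissue genes of the jaw, 6 of 10 skeletal muscle genes were higher, beside 14.0% of all genes tested. Among them were Tnni2 at 1.37 (adjusted p = 0.00239), Tnnt3 at 1.15 (adjusted p = 0.00633) and Mylpf at 1.10 (adjusted p = 0.00581) on the log2 scale. The summed level of the 10 muscle genes was 6508 to 15619 CPM in WT, lowest in replicate 2, and 16669 to 28513 CPM in the libraries labelled FcgRIIB-/-. Of 10 osteoblast genes, 3 were lower, beside 19.3% of all genes tested. They were Ibsp at -0.64 (adjusted p = 0.0426), Col1a2 at -0.52 (adjusted p = 0.0191) and Sp7 at -0.25 (adjusted p = 0.016). Without WT replicate 2, Ibsp was not called (-0.56, adjusted p = 0.0874) and Bglap, picked out for this, was called higher (0.71, adjusted p = 0.0443). Of 10 salivary gland genes, whose tissue is rich in IgA plasma cells, 3 could be tested and 1, Amy1, was higher (0.56, adjusted p = 0.0257), with 10.4 to 26.5 CPM over all mice. Muc19 and Aqp5 were picked out after their values were seen. Muc19 reached 57.5 CPM in replicate 4 of the libraries labelled FcgRIIB-/- and was at or below 0.468 CPM in every other mouse. In WT replicate 2 it was at 0.0401 CPM, whereas Aqp5 was at 5.62 CPM there, against 0.543 to 1.05 CPM in the other WT mice. The part of salivary tissue in that mouse was not tested.

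**Figure D4:**
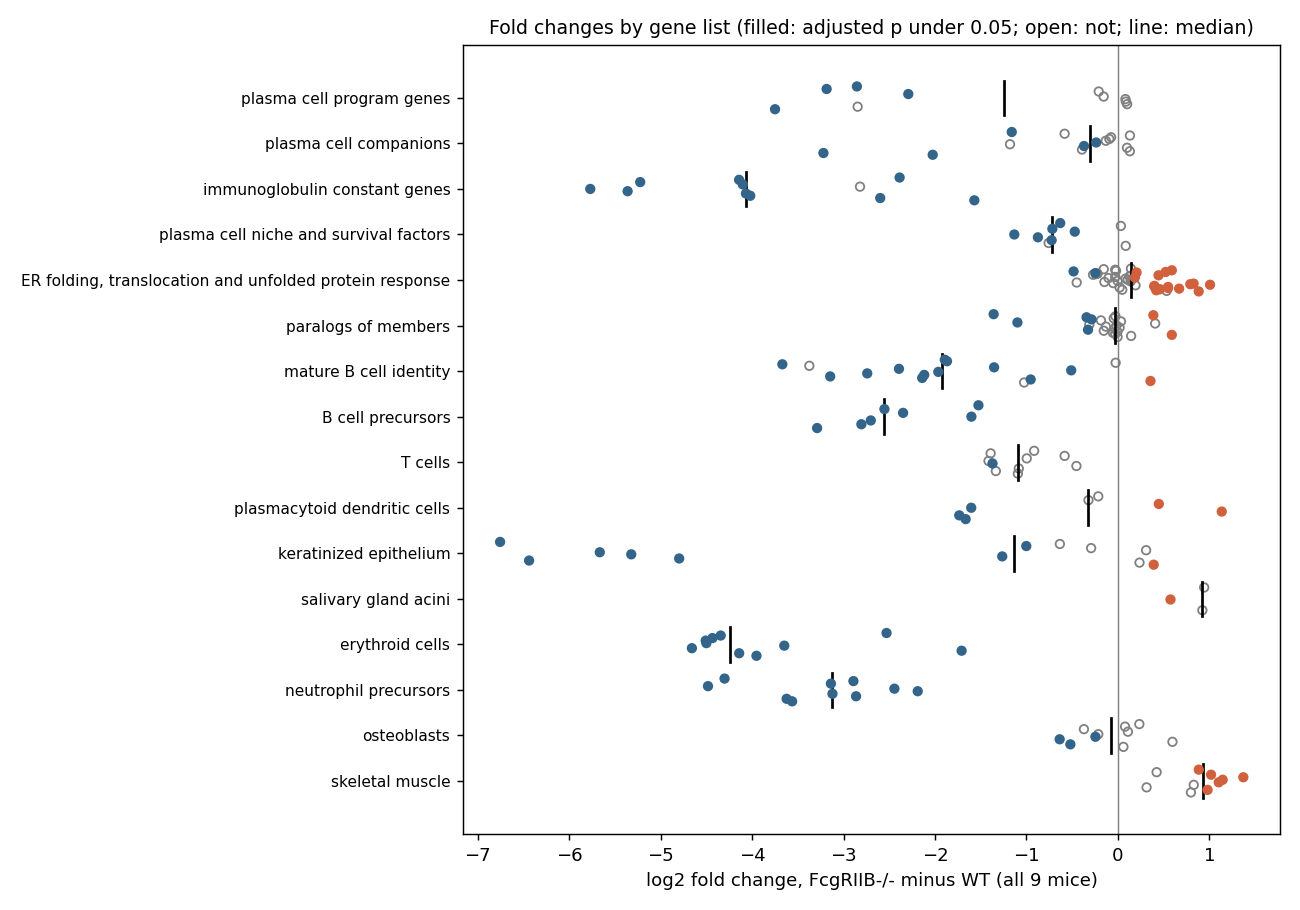
Log2 fold change of the libraries labelled FcgRIIB-/- minus WT over all 9 mice (horizontal axis) for every tested gene of each list (rows), with filled points for an adjusted p under 0.05 by edgeR, open points for the rest and a black line at the list's median. The immunoglobulin, B cell, erythroid and neutrophil lists lie to the left of 0, with medians of -4.07, -1.93, -4.24 and -3.13, and the ER list has a median of 0.14.

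From mouse to mouse within the groups, the 10 genes were compared by their relation to Jchain. After removal of the group means over 9 mice, Pearson's r to Jchain on log2 CPM was highest for Mzb1 at 0.93 (exact permutation p = 0.0844, adjusted p = 0.229 over 9 relations), with Spearman's rho of 0.75 (exact p = 0.0691, adjusted p = 0.311). For Irf4 r was 0.87 (exact permutation p = 0.0375, adjusted p = 0.229) and rho 0.70 (exact p = 0.0608, adjusted p = 0.311). For the other 7 genes r lay between -0.03 for Prdm1 and 0.79 for Xbp1, with adjusted exact p between 0.229 and 0.956, and their rho lay between 0.03 and 0.58, with adjusted exact p between 0.394 and 0.949. None of the 9 relations passed after adjustment. Without the 2 mice farthest in Jchain, WT replicate 2 and replicate 1 of the libraries labelled FcgRIIB-/-, r was 0.18 for Mzb1, 0.59 for Irf4, 0.13 for Pou2af1, -0.08 for Xbp1, -0.51 for Derl3, 0.62 for Tent5c, 0.63 for Prdm1, 0.31 for Fkbp11 and -0.30 for Sdc1. The high r of Mzb1 rested on those mice, whereas r rose for Prdm1 and stayed near its value for Tent5c (0.68 over 9 mice).

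Over all 15331 genes with a mean of at least 20 counts, those most like Jchain by the same measure over 9 mice were Igkc (r = 0.99), Wif1 (r = 0.98), Igkv5-43 (r = 0.97), Kng2 (r = 0.97), Shisa5 (r = 0.96) and Gm10509 (r = 0.96). Mzb1 ranked 26, Irf4 83 and Tent5c 638 in that order, and Prdm1 ranked 7876. WT replicate 2 was the mouse farthest from the median of Jchain, so it weighs heavily in each r.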

How the data were processed

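Poly(A) RNA from whole mandibles of 5 WT and 4 FcgRIIB-/- mice was made into stranded libraries, 1 per mouse. Before deposit, the authors used Trim Galore for trimming, HISAT 02.1.0 for alignment to mm10 and featureCounts for counting, which gave the deposited raw counts. The annotation, the strand setting and the treatment of reads with several matches are not given in the sources used here. Samples were grouped by their labels, and 1 column of values that matches no sample was not used. Rows without a symbol held 0.0971% of counts; they named genes by number and were kept in the fit.

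The groups were compared with edgeR 4.0.16 in R 4.3.3: filterByExpr with a minimum count of 10, TMM scaling, the quasi-likelihood test without covariates and Benjamini-Hochberg adjustment over 16329 genes at 0.05. CPM are scaled by TMM, and log2 CPM used a prior count of 2. The standard error (SE) was derived from the size of the fold change and the F statistic. Levels per kb use the exon union of GENCODE M21. The values of each gene were also compared by two-sided exact permutation of the samples (126 splits, or 70 without WT replicate 2). Relations to Jchain were tested over 2880 orders within genotype. DESeq2 1.42.0, limma 3.58.1 (voom), other scalings and filters, a replicate block and leaving out each mouse were alternatives. On simulated data of 16329 genes, 200 of them changed by a log2 fold change of 1, the test called 75% of the changed genes, and 6.25% of its calls were unchanged genes. No pair of libraries within a group was near identical in counts.

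The 10 genes and the 15 lists were chosen with earlier results of these data known. All 10 genes, the called immunoglobulin constant genes, the 6 most abundant companions, up to 3 called genes per direction of each other list, the 6 genes most like Jchain and Fcgr2b are named, and any other gene was picked after its values were seen. Totals of 21453880 to 28991631 counts leave genes under 1 CPM with fewer than 30 counts. Intervals cover counting error only.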

Additional observations from a re-analysis of the deposited data

Results flagged for a closer look

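Each group's highest and lowest mouse was checked for a gap that is large relative to the range of the group, by Dixon's ratio. Chance gives such a gap in about 1 of 20 groups of normally spread values, and 19 of 49 checks passed. The checks of single genes used CPM without a log scale, and all checks share the same 9 mice. They are therefore not independent, and that rate is no measure for their number. In 17 of the 19, WT replicate 2 was the highest WT mouse.

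Among the plasma cell program genes the ratio for WT replicate 2 was 0.912 for Jchain, 0.986 for Mzb1, 0.932 for Derl3, 0.755 for Xbp1, 0.772 for Irf4 and 0.84 for Pou2af1. For Prdm1 the highest WT mouse was replicate 5 instead, with a ratio of 0.864. Fkbp11, Sdc1 and Tent5c gave no such gap.

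For the immunoglobulin constant genes, the ratio for WT replicate 2 was 0.809 for Ighd, 0.938 for Igha, 0.967 for Ighg1, 0.922 for Ighg2b, 0.969 for Ighg2c, 0.759 for Ighg3, 0.951 for Igkc, 0.917 for Iglc1, 0.958 for Iglc2 and 0.9 for Iglc3. In the libraries labelled FcgRIIB-/-, replicate 4 was the highest for Iglc2, with a ratio of 0.848. For the B cell gene Cd79b, WT replicate 2 had a ratio of 0.746.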

How the results depend on the processing

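Over the alternatives, the count of the 10 genes called lower was between 3 (DESeq2 and limma-voom) and 5, and the count called higher was 0 except on leaving out 1 mouse, where it was 0 to 1. DESeq2 gave Jchain and Mzb1 no adjusted p. Jchain missed the threshold with limma-voom (adjusted p = 0.0517). Mzb1 passed as lower when scaled by library total alone (adjusted p = 0.0452) and without each of the WT replicates in turn. Derl3 ranged from -0.43 to 1.24 (log2) on leaving out 1 mouse and was negative in 5 of these fits, none of which passed. Irf4, Pou2af1 and Tent5c were called lower in all 17 alternatives, with log2 fold changes of -2.46 to -1.69, -3.67 to -2.30 and -2.96 to -2.68. Same-numbered mice are different animals, and their deviations correlated at -0.114 to 0.097, so the numbers were not taken as pairs. With a replicate block (8 mice, WT replicate 5 dropped) 4 genes were called lower, with Jchain at -2.58 (adjusted p = 0.0225) and Mzb1 at -1.87 (adjusted p = 0.104). The count of ER genes called higher was 10 in that fit. Over the alternatives, the count of immunoglobulin constant genes called lower was 2 to 11 and that of ER genes called higher 7 to 16, and a mature B cell gene was called higher in 10 of 18. Depth limits Mzb1, Derl3, Irf4 and Pou2af1, which rest on 10 to 133 counts each in the libraries labelled FcgRIIB-/-.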

Other observations

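Variable genes of the antibodies, looked at after the constant genes, differed in how far 1 gene led. In WT replicate 2, Igkv5-43 took 41.4% of 20220 kappa variable counts (95% Wilson interval 40.7 to 42.1), and Ighv1-64 took 20.1% of 10751 heavy chain variable counts (19.4 to 20.9). In WT replicate 5 the leading kappa gene was Igkv6-15, with 28.5% of 2827 counts (26.9 to 30.2). In the other WT mice the leading kappa gene took 6.41% to 15.7%. The libraries labelled FcgRIIB-/- had only 129 to 254 kappa variable counts each, with 8.53% to 20% for the leading gene, which was a different one in each mouse. Variable genes of a family are similar in sequence, and how reads with several matches were counted is not given in the sources used here.

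The counts of Igha, Ighg2b and Igkc in WT replicate 2 lay within 124 of each other, the highest being 54998. In the other 8 mice the gap between the highest and the lowest of the 3 was 245 to 1325, with a highest count of 583 to 5205.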
